A study of Mus musculus with 4 samples.

Results

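Among T cells sorted from the pancreatic islets of NOD mice, a small set carried RNA of several interferon-response genes at a time. These cells were chosen by a rule on measured values: at least 4 of the genes Ifit1, Ifit3, Isg15, Rtp4, Usp18, Irf7, Gbp4 and Igtp had to be detected, and a cell entered only with at least 500 detected genes and no more than 10% of its UMIs from mitochondrial (mt-) genes. At 8 weeks of age the rule took 91 of 1875 kept cells, or 4.85% (Clopper-Pearson 95% interval 3.93 to 5.93%). At 16 weeks it took 78 of 1934, or 4.03% (3.20 to 5.01%), which makes 169 of 3809 cells in all. They are called 4-of-8 cells here and are set, within each library, against the 1353 and 1399 cells with 0 or 1 of the 8, called 0-or-1 cells. The 431 and 457 cells with 2 or 3 of the 8 lay between and entered neither group.

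NOD is an inbred strain in which T cells infiltrate the islets and autoimmune diabetes develops spontaneously. All mice were female and labelled pre-diabetic, and both groups of cells at an age come from the same library, so strain, sex, sort and age are shared within each comparison. DAPI-negative (live) cells that an antibody to TCR beta stained were sorted. Droplet-based 5′ reagents then gave, for each age, 1 library of RNA and 1 of receptor chains. With 1 library of each kind per age nothing was tested: cells of a library are not replicates, and every interval covers counting error only. A UMI (unique molecular identifier) counts 1 captured RNA molecule, and levels are sums of UMIs over a group of cells per 1000000 UMIs of that group (CPM). How many mice gave each library, and so whether 1 animal gave most of these cells, is not given in the sources used here.

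Interferons are secreted proteins that warn cells of infection. Type I interferons bind the receptor Ifnar1 and Ifnar2, type II interferon (Ifng) binds Ifngr1 and Ifngr2, and both signal through Jak kinases to transcription factors of the Stat family. A complex that holds Stat2 and Irf9 binds interferon-stimulated response elements in target promoters, and a Stat dimer binds gamma-activated sites. The induced genes include antiviral effectors such as the Ifit family, the ubiquitin-like protein Isg15 and its remover Usp18, and the transcription factor Irf7. They also include GTPases such as Gbp4 and Igtp that take part in defence against microbes inside cells. In type 1 diabetes an interferon signature in and around islets is a known feature of early disease.

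The promoters of the genes that chose the cells show how such elements are laid out. Windows of RefSeq starts (build GRCm38.p6, 250 bases before to 50 after the start) were given for Ifit1, Ifit3, Isg15, Irf7 and Igtp. The 150 bases from 170 to 21 before the start are printed 5′ to 3′ on the gene's strand, with matches to the core of a response element (GAAA, any 2 bases, GAAA) on either strand in capitals. These 4 are shown because each holds the motif.

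Ifit1, plus strand, chr19:34640719-34640868: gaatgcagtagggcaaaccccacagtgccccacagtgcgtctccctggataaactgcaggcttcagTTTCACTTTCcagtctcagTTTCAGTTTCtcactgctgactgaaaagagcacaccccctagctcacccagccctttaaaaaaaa

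Ifit3, plus strand, chr19:34583359-34583508: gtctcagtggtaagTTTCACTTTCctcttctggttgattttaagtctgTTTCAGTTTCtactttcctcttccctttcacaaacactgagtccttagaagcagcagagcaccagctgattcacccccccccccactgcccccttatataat

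Isg15, minus strand, chr4:156200839-156200988: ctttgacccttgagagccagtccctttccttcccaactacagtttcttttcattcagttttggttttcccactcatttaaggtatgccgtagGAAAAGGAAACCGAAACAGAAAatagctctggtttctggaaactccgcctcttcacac

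Igtp, plus strand, chr11:58199386-58199535: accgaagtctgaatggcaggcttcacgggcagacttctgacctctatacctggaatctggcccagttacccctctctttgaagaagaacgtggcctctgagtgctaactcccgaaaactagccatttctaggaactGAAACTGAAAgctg

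Ifit1 had 2 matches, whose first bases lay 104 and 85 bases before the start, and Ifit3 had 2, at 156 and 122. Isg15 had 3 matches that overlapped one another, at 78, 72 and 66, and Igtp had 1 at 34, with a gamma-activated-site motif (TTCNNNGAA, which reads alike on both strands) at 45. The Irf7 window held neither motif. Of all 32851 windows, 3.44% held the response-element core on either strand and 8.30% held TTCNNNGAA. Counted by gene, any window of a gene serving, the core was in 20 of the 45 response genes outside the 8 that had a window and enough UMIs (44.4%), against 187 of 4499 such genes of all kinds (4.16%). TTCNNNGAA was in 11 of the 45 (24.4%) against 389 of the 4499 (8.65%). Of 11 naive-state genes with a window, 0 held the core and 2 held TTCNNNGAA. A match describes letters in a window and is not a binding site.

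Depth and signs of doublets come before any result, since both moved with the rule. The 4-of-8 cells held more RNA: the median was 7565 UMIs (1712 to 28164) at 8 weeks and 5432 (1518 to 26268) at 16 weeks, against 2711 and 2718 in the 0-or-1 cells, with medians of 2166 and 1752 against 1082 and 1086 genes. When the kept cells were divided at the UMI quintiles of the 4-of-8 cells, the rule took 18 of 850 cells of the shallowest bin (2.12%) and 19 of 89 of the deepest (21.3%) at 8 weeks. At 16 weeks it took 16 of 865 (1.85%) and 16 of 98 (16.3%). When every cell was thinned to 1500 UMIs, 13 of 1761 cells at 8 weeks (0.738%) and 15 of 1854 at 16 weeks (0.809%) still had 4 or more of the 8, and 44 and 29 of the 4-of-8 cells dropped to 0 or 1. Thinning left out 114 and 80 kept cells under 1500 UMIs, 0 of them 4-of-8 cells.

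The 4-of-8 cells also carried more signs of 2 cells under 1 barcode. At least 2 productive beta chains were found in 35 of 86 of them with a beta chain at 8 weeks, or 40.7% (30.2 to 51.8%). At 16 weeks the count was 28 of 74, or 37.8% (26.8 to 49.9%), against 7.73% and 9.76% of the 0-or-1 cells. UMIs of both Cd4 and Cd8 (Cd8a or Cd8b1), the coreceptors that mature T cells carry one at a time, were found in 21 of 91 (23.1%) and 16 of 78 (20.5%), against 2.29% and 2.72%. Below 5000 UMIs the share with 2 or more beta chains was 3.57% and 5.71% of the 4-of-8 cells with a beta chain. Results are therefore given also against 0-or-1 cells weighted to the same UMI quintiles (depth-weighted), and in restricted cells, those under 5000 UMIs with at most 1 beta chain and not both Cd4 and Cd8. The restricted set, chosen after seeing the data, holds 32 and 36 of the 4-of-8 cells and 1066 and 1165 of the 0-or-1 cells. Depth weights did not match signs of doublets. In the deepest bin at 8 weeks, 15 of 19 4-of-8 cells with a beta chain had 2 or more, against 8 of 33 0-or-1 cells. At 16 weeks it was 9 of 16 against 13 of 35. That bin held only 35 and 36 of the 0-or-1 cells, and depth-weighted ratios are given without intervals. Mitochondrial shares were alike, with medians of 2.60% and 2.59% against 2.80% and 2.82%, and the libraries shared 5 barcodes, 0 of them among the 4-of-8 cells.

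**Figure D1:**
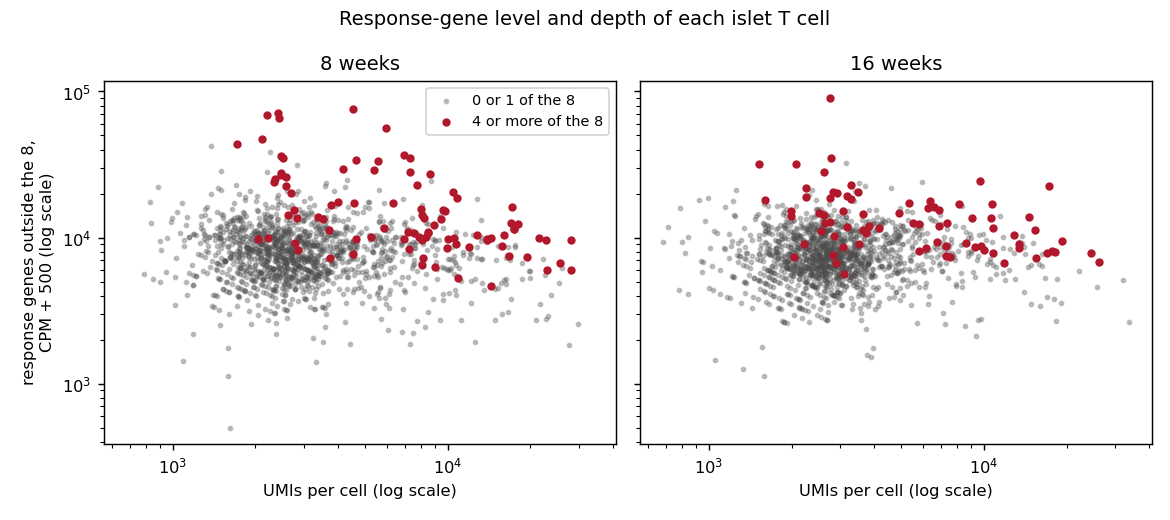
Each point is 1 cell, with its UMIs on a log x axis and its level of the response genes outside the 8 (CPM, with 500 added so that 0 can be drawn) on a log y axis, at 8 weeks (left) and 16 weeks (right). The highest red 4-of-8 cells, at 75851 and 90379 CPM before the 500 are added, have under 5000 UMIs, while many of the deeper ones lie among the grey 0-or-1 cells.

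The sorted cells were T cells by their markers. Cd3e, part of the receptor complex, was detected in 90 of 91 and 78 of 78 of the 4-of-8 cells, and 0 of them lacked all of Cd3d, Cd3e and Cd3g. The name interferon-responding was borne out by only some of the 8 genes in each cell. At 8 weeks Irf7 was found in 80 of 91 cells (87.9%), Isg15 in 78 (85.7%), Igtp in 75 (82.4%), Gbp4 in 66 (72.5%) and Rtp4, a chaperone of receptors at the membrane, in 58 (63.7%). Ifit3 was found in 25 (27.5%), Ifit1 in 24 (26.4%) and Usp18 in 15 (16.5%). At 16 weeks the shares were 70.5% for Irf7, 82.1% for Isg15, 85.9% for Igtp, 82.1% for Gbp4, 65.4% for Rtp4, 20.5% for Ifit3, 30.8% for Ifit1 and 25.6% for Usp18. Of the 4-of-8 cells, 47 of 91 and 37 of 78 had no UMI of Ifit1, Ifit3 or Usp18. The level of each of these genes chose the cells and is description alone.

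**Figure D2:**
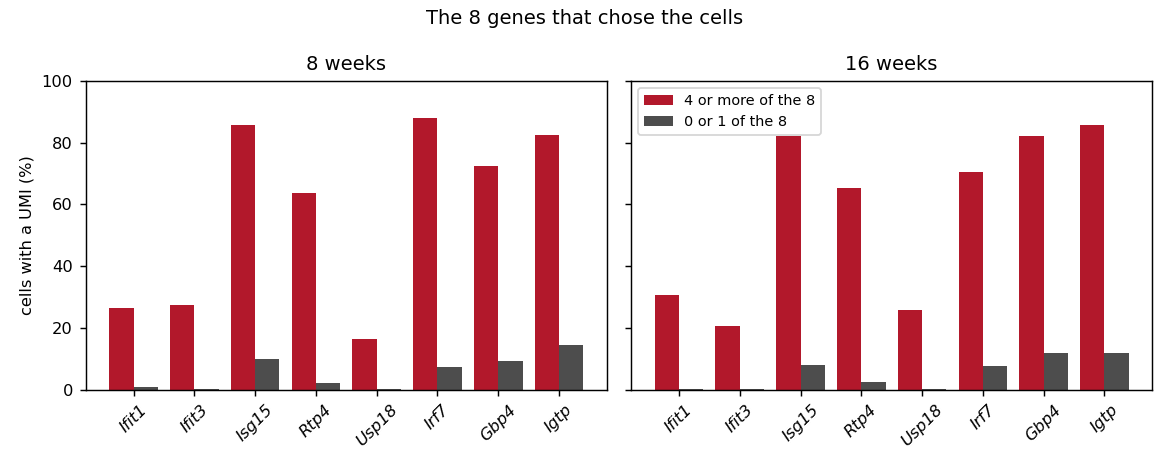
Bars give the percent of cells with a UMI of each of the 8 genes, in 4-of-8 cells (red) and 0-or-1 cells (grey), at 8 weeks (left) and 16 weeks (right). Isg15, Irf7, Igtp and Gbp4 stand between 70.5% and 87.9% in the red bars, while Ifit1, Ifit3 and Usp18 stay at 30.8% or below.

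The genes lie on several chromosomes of build mm10 by the GENCODE M21 annotation. Ifit1 (ENSMUSG00000034459) spans 34640871 to 34650009 and Ifit3 (ENSMUSG00000074896) 34583531 to 34588731, both on chromosome 19. Isg15 (ENSMUSG00000035692) lies on chromosome 4 from 156199424 to 156200818, Irf7 (ENSMUSG00000025498) on chromosome 7 from 141262706 to 141266481 and Igtp (ENSMUSG00000078853) on chromosome 11 from 58199556 to 58207591. Rtp4 (ENSMUSG00000033355) lies on chromosome 16 from 23520291 to 23614222, Usp18 (ENSMUSG00000030107) on chromosome 6 from 121245906 to 121270917 and Gbp4 (ENSMUSG00000079363) on chromosome 5 from 105115767 to 105139586. Ifit3 has a near-identical neighbour, Ifit3b, which had 2 and 5 UMIs in the 4-of-8 cells, and Gbp4 belongs to a cluster of similar genes, so how reads were divided among such copies is uncertain.

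Genes outside the 8 that respond to interferon were higher in the 4-of-8 cells in both libraries. The 4 lists of such genes (antiviral effectors, RNA and DNA sensors, ADP-ribosyl and Slfn response genes, and GTPases) hold 90 genes, of which 85 were found and 57 had at least 10 UMIs, seen or predicted from the 0-or-1 level, in the 4-of-8 cells of each library. Within single libraries, 1.31% of all tested genes were past 2-fold higher and 0.984% past 2-fold lower at 8 weeks, and 2.14% and 1.21% at 16 weeks. Summed over the 85, the level was 13181 CPM (12929 to 13437) in 4-of-8 and 7320 CPM (7246 to 7394) in 0-or-1 cells at 8 weeks. At 16 weeks it was 11676 CPM (11393 to 11965) and 7222 CPM (7147 to 7299). The log2 ratio of the sums was 0.85 (exact interval 0.82 to 0.88) and 0.69 (0.65 to 0.73). Of the 57, 17 lay past a 2-fold difference in both libraries and 56 above 0 in both. Over all 5791 genes with enough UMIs, 36 lay past 2-fold higher in both (0.622%), 0 past 2-fold lower in both (0%) and 34.8% above 0 in both. The medians over the 57 were 0.93 and 0.86, against 0.02 and 0.07 over all genes. Of the 57, 12 reached 10 UMIs in a library only through their level in the 4-of-8 cells, and 6 of these were among the 17 past 2-fold in both (Dhx58, Gbp3, Ifih1, Iigp1, Irgm2 and Phf11a). The other 45 had medians of 0.92 and 0.81, with 44 and 45 above 0 and 11 past 2-fold in both libraries. The contrast is the one that chose the cells, so these counts describe it and support nothing further.

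The same genes stood further apart where depth was matched. Against depth-weighted 0-or-1 cells the medians of the 57 were 1.32 and 1.32, and in restricted cells they were 1.77 and 1.65. The rule bears on this: a shallow cell needs a higher level to show 4 of the 8. A deep cell needs a lower one to show 0 or 1. Isg15 was at 739 and 958 CPM in restricted 4-of-8 cells, against 312 and 352 CPM in all 4-of-8 cells. Both versions are therefore no independent check of depth. In restricted cells the summed response level was 25667 CPM (24663 to 26700) at 8 weeks and 17122 CPM (16321 to 17952) at 16 weeks, against 7899 and 7315 CPM in restricted 0-or-1 cells. With depth-weighted 0-or-1 cells 63 of 5847 genes were past 2-fold higher in both libraries (1.08%) and 35 past 2-fold lower (0.599%), and 33 of the 63 were in the 4 response lists. Of the 36 genes, 25 were past 2-fold in this comparison too and all 36 were above 0.

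By cell, the response level varied widely. The median was 11740 CPM (4186 to 75851) in 4-of-8 cells at 8 weeks and 11699 CPM (5150 to 90379) at 16 weeks, against medians of 7214 and 6873 CPM in 0-or-1 cells. The groups overlapped: 36 of 91 (39.6%) and 34 of 78 (43.6%) of the 4-of-8 cells lay above the 95th percentile of the 0-or-1 cells of their library, 14351 and 12667 CPM. Cells just outside the rule, with 3 of the 8 (136 and 141 cells), had 9831 and 9015 CPM, and those just inside, with 4 (57 and 47 cells), had 11193 and 10725 CPM. The 3 cells with all 8 genes, all at 8 weeks, had 44373 CPM (40406 to 48625) and a median of 2685 UMIs, and the 6 cells with 7 at 16 weeks had 26755 CPM (24806 to 28817) and a median of 3121 UMIs. Among 4-of-8 cells at 8 weeks, the 44 with a UMI of Ifit1, Ifit3 or Usp18 had 18726 CPM at a median of 4351 UMIs, and the 47 without had 10325 CPM at a median of 9633 UMIs. At 16 weeks the values were 12081 CPM (4152 UMIs) and 11300 CPM (6759 UMIs). The 13 and 15 cells that kept 4 of the 8 after thinning had 46241 and 22003 CPM, and the other 78 and 63 had 11400 and 10755 CPM.

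Among antiviral effectors, Isg20, an exonuclease of RNA, was at 124 CPM in 4-of-8 and 32.3 CPM in 0-or-1 cells at 8 weeks and at 107 and 27.4 CPM at 16 weeks. Its log2 ratios were 1.95 (1.57 to 2.31) and 1.97, so the level was higher in the 4-of-8 cells of both libraries. Zbp1, a sensor of Z-form nucleic acid, was at 162 and 69.2 CPM and at 170 and 63.6 CPM, with ratios of 1.23 and 1.43. Xaf1, a proapoptotic gene, was at 84.9 and 26.6 CPM and at 78.0 and 24.7 CPM, with ratios of 1.68 and 1.67. Bst2 (tetherin), which holds budding virus at the cell surface, had ratios of 1.09 and 0.98, and Ifi27l2a 1.37 and 0.81. All but Ifitm2 (-0.36 and 0.09) of the 14 antiviral genes with enough UMIs were above 0 in both libraries, with medians of 1.00 and 0.84.

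The sensors of viral RNA and DNA were few in UMIs. Dhx58 (LGP2) had 14 and 12 UMIs in the 4-of-8 cells, at 17.7 and 2.54 CPM in 4-of-8 and 0-or-1 cells at 8 weeks and 21.8 and 3.52 CPM at 16 weeks. Its ratios, 2.80 (1.60 to 4.01) and 2.64 (1.43 to 3.78), had wide intervals. Ifih1 (MDA5) had 11 and 15 UMIs and ratios of 1.39 and 2.02, and Ddx58 (RIG-I) 0.80 and 0.56. Ifi203, of the family that binds DNA, had 135 and 95 UMIs and ratios of 1.37 and 1.19. Tmem173 (STING), the adaptor of DNA sensing, was at 0.53 and 0.31, and the median over 8 sensors was 0.91 and 0.60.

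The GTPases had medians of 1.11 and 1.30, against 1.00 and 0.84 for the antiviral effectors, and all 12 with enough UMIs were above 0 in both libraries. Gbp2, a guanylate-binding protein, was at 122 and 47.3 CPM at 8 weeks and at 158 and 61.1 CPM at 16 weeks, with ratios of 1.37 (1.01 to 1.71) and 1.37 (1.01 to 1.72). Gbp7 was at 1.35 and 1.40, and Gbp3 at 1.38 and 1.72. Among immunity-related GTPases, a family of defence against intracellular microbes, Irgm2 was at 1.34 and 1.68 and Irgm1 at 0.80 and 1.23. Ifi47 was at 0.87 and 1.02 and Iigp1 at 1.57 and 1.17. Tgtp1 and Tgtp2 are near-identical copies, so their ratios of 1.31 and 0.84 and of 0.89 and 1.39 are uncertain. Against depth-weighted 0-or-1 cells the medians were 1.63 and 1.66, and in restricted cells 1.85 and 2.17. The order of these lists was not the same in every version: at 8 weeks the antiviral list was at 2.05 in restricted cells, and its log2 ratio of summed levels was 1.29 against 1.01 for the GTPases.

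In the list of ADP-ribosyl and Slfn response genes all 23 with enough UMIs were above 0 in both libraries, with medians of 0.85 and 0.81. Ly6a (Sca-1), a surface protein induced in activated and interferon-treated T cells, was at 1660 and 608 CPM at 8 weeks and at 1773 and 685 CPM at 16 weeks. Its ratios of 1.45 (1.36 to 1.54) and 1.37 (1.27 to 1.48) rest on 1310 and 978 UMIs in the 4-of-8 cells. An Ly6a UMI was found in 80.2% and 89.7% of 4-of-8 cells against 45.4% and 53.3% of 0-or-1 cells. Thinned to 1500 UMIs the shares were 61.5% (50.8 to 71.6%) and 73.1% (61.8 to 82.5%) against 35.7% and 42.5%, so they stayed apart at equal depth. Rnf213, a large ubiquitin ligase, was at 1.43 and 1.44. The ADP-ribosyltransferases Parp14 (1.10 and 1.40) and Parp9 (1.11 and 1.30) and the partner of Parp9, Dtx3l (0.85 and 1.46), were likewise higher, and Slfn2, which keeps T cells quiescent, was at 0.14 and 0.03.

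Another 28 genes of the lists had too few UMIs for single ratios. They include classical type I targets: Rsad2 (viperin) had 10 and 4 UMIs, Oas1a 18 and 7, Mx1 3 and 12 and Ifit2 11 and 7 in the 4-of-8 cells. Together the 28 had 180 and 124 UMIs, or 228 and 225 CPM, against 75.5 and 77.5 CPM in 0-or-1 cells. The log2 ratios of these sums were 1.60 (1.33 to 1.85) and 1.54 (1.23 to 1.83). Of the 28, 6 were at 0 UMIs in the 4-of-8 cells of each library.

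**Figure D3:**
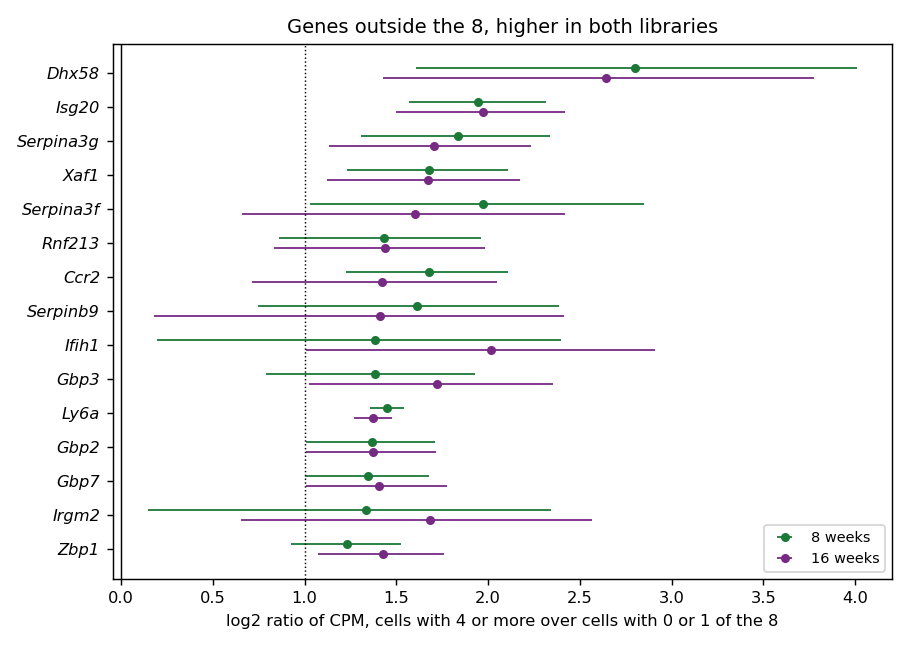
Points give the log2 ratio of CPM of 4-of-8 over 0-or-1 cells for the 15 highest genes outside the 8 among those past 2-fold in both libraries with 25% or less of their UMIs from any 1 cell (8 weeks green, 16 weeks purple), bars the exact 95% counting interval and the dotted line a 2-fold difference. Dhx58 leads with 2.80 and 2.64 on few UMIs, and Ly6a has the narrowest bars. Dhx58, Ifih1, Irgm2, Gbp3, Ccr2, Serpinb9 and Serpina3f reached 10 UMIs in at least 1 library only through the 4-of-8 cells.

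Signalling genes differed less. Stat2, a transcription factor of the type I complex, was at 35.5 and 9.78 CPM in 4-of-8 and 0-or-1 cells at 8 weeks and at 36.3 and 19.1 CPM at 16 weeks, with ratios of 1.87 (1.14 to 2.55) and 0.96 (0.15 to 1.64). Irf9, its partner, was at 0.71 and 0.49, and its interval at 16 weeks reached below 0 (-0.02 to 0.95). Socs1, a brake on Jak kinases, was at 0.68 and 1.12, and Irf1, a target of type II interferon, at 0.27 and 0.71. The receptor chains Ifnar1 (0.22 and 0.25), Ifnar2 (0.07 and -0.20) and Ifngr1 (0.39 and 0.42) and the kinases Jak1 (0.00 and -0.14) and Jak2 (0.27 and 0.44) lay nearer 0. Of the 16 signalling genes 12 were above 0 in both libraries and 1 below in both, Ifngr2, with 2 and 10 UMIs. The list's medians were 0.24 and 0.43.

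Antigen presentation by MHC class I, another known target of interferon, showed small differences in 1 direction. Of 18 genes with enough UMIs 17 were above 0 in both libraries, with medians of 0.40 and 0.37, and 0 were past 2-fold. The immunoproteasome subunits Psmb8 (0.36 and 0.33), Psmb9 (0.52 and 0.23) and Psmb10 (0.71 and 0.40), the peptide transporter Tap1 (0.40 and 0.45) and the activator Nlrc5 (0.97 and 0.87) were higher, and H2-D1 was at 0.05 and 0.08. NOD mice carry an H2 haplotype of their own, and how its reads map to mm10 was not tested. Of 10 interferon genes, 9 had 0 UMIs in the 4-of-8 cells of each library, the exception being Ifng. An Ifng UMI was found in 28 of 91 (30.8%) and 12 of 78 (15.4%) of the 4-of-8 cells, against 9.83% and 8.08% of the 0-or-1 cells. At 1500 UMIs the difference was 1.56 points (-2.23 to 8.69) and 1.73 points (-2.12 to 9.53). In level, Ifng was at 65.9 and 57.3 CPM at 8 weeks and at 34.4 and 54.3 CPM at 16 weeks, and its ratios, 0.21 (-0.25 to 0.63) and -0.62 (-1.41 to 0.02), had intervals on both sides of 0.

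Among the 15 highest genes that did not rest on 1 cell, ranked by the smaller ratio of the libraries, 4 were outside every response list. Of these 4, Ccr2, Serpinb9 and Serpina3f reached 10 UMIs in at least 1 library only through the 4-of-8 cells, so the filter favoured high values. Serpina3g, an inhibitor of cathepsin proteases seen in activated T cells, was at 64.6 and 18.2 CPM at 8 weeks and at 72.5 and 22.4 CPM at 16 weeks, with ratios of 1.84 (1.31 to 2.34) and 1.71 (1.13 to 2.23). Its relative Serpina3f was at 1.97 and 1.60. It had 0 UMIs in the restricted 4-of-8 cells at 8 weeks and 3 at 16 weeks. Serpinb9, the inhibitor of granzyme B, was at 1.61 and 1.41. Ccr2, a chemokine receptor of cells that enter inflamed tissue, was at 83.6 and 26.2 CPM and at 47.1 and 17.8 CPM, with ratios of 1.68 (1.23 to 2.11) and 1.42 (0.71 to 2.05). In restricted cells its ratios were 2.11 on 11 UMIs and 0.90 on 2. Of the 36 genes past 2-fold in both libraries, 17 were in the response lists and 10 drew over 25% of their UMIs in a library from 1 cell.

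Cells of both main lineages met the rule. Cd4-gated cells have a Cd4 UMI and none of Cd8a or Cd8b1, and Cd8-gated cells the opposite. At 8 weeks 33 of 91 of the 4-of-8 cells were Cd4-gated, 17 Cd8-gated, 21 had both and 20 neither, and at 16 weeks the counts were 31, 14, 16 and 17 of 78. Of those assigned to 1 lineage, Cd8-gated cells were 17 of 50 (34.0%, 21.2 to 48.8%) and 14 of 45 (31.1%, 18.2 to 46.6%), against 26.0% and 30.4% of the 0-or-1 cells. At 1500 UMIs per cell they were 24 of 42 (57.1%, 41.0 to 72.3%) and 12 of 25 (48.0%, 27.8 to 68.7%), against 35.0% and 40.9%. The difference at equal depth was 22.1 points (6.60 to 36.5) at 8 weeks and 7.06 points (-11.4 to 26.0) at 16 weeks. Doublets of a Cd4 and a Cd8 cell enter the thinned shares by whichever coreceptor was kept. Thinning only removes UMIs, so the rise from 17 to 24 Cd8-gated cells at 8 weeks came from cells with both coreceptors. Cells with both fell from 21 to 1. Unthinned, the difference was 7.95 points (-4.05 to 22.1) at 8 weeks and 0.706 points (-11.4 to 15.6) at 16 weeks. How much of the thinned difference such cells make up was not tested. The response level was higher in both lineages. Cd4-gated 4-of-8 cells had 13557 CPM against 7321 CPM in Cd4-gated 0-or-1 cells at 8 weeks, and 9679 against 7367 CPM at 16 weeks. Cd8-gated cells had 15287 against 7414 CPM and 15115 against 6965 CPM. Of the 13 cells at 8 weeks that kept 4 of the 8 after thinning, 7 were Cd4-gated by all their UMIs. Of the rest, 0 were Cd8-gated (0 to 24.7%) and 6 had neither. Of the 15 at 16 weeks, 5 were Cd4-gated, 5 Cd8-gated and 5 neither.

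Foxp3, the transcription factor of regulatory T cells, was detected more often in the 4-of-8 cells. It had a UMI in 25 of 91 (27.5%) and 24 of 78 (30.8%), against 10.4% and 7.08% of the 0-or-1 cells. At 1500 UMIs the shares were 15.4% (8.67 to 24.5%) and 15.4% (8.21 to 25.3%) against 4.80% and 3.62%, with 1.71% and 1.92% in Cd8-gated 0-or-1 cells, most of which should lack it. Within the 4-of-8 cells an unthinned Foxp3 UMI was found in 8 of 33 Cd4-gated (24.2%) and 3 of 17 Cd8-gated cells (17.6%) at 8 weeks, and in 11 of 31 (35.5%) and 2 of 14 (14.3%) at 16 weeks. Thinned, the counts were 3 of 18 Cd4-gated and 4 of 24 Cd8-gated cells at 8 weeks and 1 of 13 and 0 of 12 at 16 weeks. RNA of a second cell under the barcode can give such counts, and its part was not tested. At 8 weeks Foxp3 was in 19 of the 39 4-of-8 cells with 2 or more beta chains or both Cd4 and Cd8. It was in 6 of the other 52. At 16 weeks it was in 15 of 31 and in 9 of the other 47. The former cells were also deeper, with medians of 10451 and 9255 UMIs against 3880 and 3078 in the others. In restricted cells the counts were 4 of 32 (12.5%) and 4 of 36 (11.1%), against 80 of 1066 and 60 of 1165 restricted 0-or-1 cells. In level, Foxp3 was at 84.9 and 54.4 CPM at 8 weeks and at 129 and 41.0 CPM at 16 weeks, with ratios of 0.65 (0.24 to 1.03) and 1.66 (1.24 to 2.05), and of 0.96 and 1.31 in restricted cells. Of other regulatory T genes, Ikzf2 (Helios) was at 0.60 and 0.65 and Tnfrsf18 (GITR) at 0.73 and 0.81, which is below Foxp3 at 16 weeks but not clearly so at 8 weeks. Ctla4, an inhibitory receptor on the same cells, was at 1.11 and 0.85, but at 1.62 and -1.75 in restricted cells. The regulatory list had medians of 0.63 and 0.62, and 9 of 10 genes were above 0 in both libraries. Its medians were 0.51 and 0.30 against depth-weighted 0-or-1 cells, with 7 of 10 above 0 in both, and 1.01 and 0.39 in restricted cells.

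Genes of naive T cells were lower in the 4-of-8 cells when all cells were compared and in restricted cells, and higher against depth-weighted 0-or-1 cells. Of the 14 genes 11 were below 0 in both libraries and 0 above, with medians of -0.76 and -0.43, while 24.5% of all genes were below 0 in both. Lef1, a transcription factor of naive cells, was at 153 and 272 CPM at 8 weeks and at 315 and 468 CPM at 16 weeks, with ratios of -0.82 (-1.11 to -0.56) and -0.56 (-0.80 to -0.34). Ccr7, which guides cells into lymph nodes, was at -0.89 and -0.40, Klf2, which keeps naive cells circulating, at -0.52 and -0.43, S1pr1, the exit receptor it controls, at -0.69 and -0.41, and Igfbp4 at -1.18 and -0.80. Against depth-weighted 0-or-1 cells the medians turned to 0.25 and 0.34 and 10 of 14 genes were above 0 in both libraries (34.9% of all genes, with 29.6% below 0 in both), Lef1 being at 0.38 and 0.31. In restricted cells the medians were -0.29 and -0.40. Lef1 was detected in 50.5% and 74.4% of 4-of-8 cells against 49.1% and 62.5% unthinned, and in 23.1% and 33.3% against 36.5% and 47.8% at 1500 UMIs. The thinned difference was -13.5 points (-21.4 to -3.46) and -14.5 points (-24.3 to -3.13). The direction for the naive genes therefore depended on how depth was handled, and no naive or effector state is assigned.

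Effector and memory genes were higher against all 0-or-1 cells. Against depth-weighted 0-or-1 cells they were higher by less at 8 weeks and went both ways at 16 weeks. The list's medians were 0.47 and 0.34 with 16 of 19 genes above 0 in both libraries (34.8% of all genes). With depth weights the medians were 0.25 and 0.02, with 11 of 19 above 0 in both (34.9% of all genes) and 8 below 0 at 16 weeks. In restricted cells they were 0.37 and 0.43. S100a6, a calcium-binding protein of effector cells, was at 1452 and 749 CPM and at 914 and 434 CPM, with ratios of 0.96 (0.86 to 1.05) and 1.08 (0.93 to 1.22). Vim (0.47 and 0.37) and Lgals1 (0.44 and 0.51) were at -0.13 and -0.17 and at -0.40 and -0.46 with depth-weighted 0-or-1 cells, so their direction turned. Cd44, a marker of activated cells, was detected in 50.5% and 37.2% of 4-of-8 cells against 17.1% and 16.1% unthinned. At 1500 UMIs it was in 15.4% (8.67 to 24.5%) and 11.5% (5.41 to 20.8%), against 7.75% and 7.47%. Genes of inhibitory receptors and exhaustion were at medians of 0.60 and -0.04, with Pdcd1 (PD-1) at 0.18 and -0.41 and Tox at 0.23 and -0.04. Their medians were 0.35 and -0.50 with depth weights and -0.06 and -1.10 in restricted cells. Cytotoxic genes had medians of 0.62 and 0.08, and Nkg7, of cytotoxic granules, was at 0.66 and 0.17. The cytotoxic medians were 0.57 and -0.21 with depth weights and -0.14 and 0.72 in restricted cells, so their direction was not the same throughout.

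Cell-division genes went both ways. Their medians were 0.38 and 0.45 against all 0-or-1 cells and -0.69 and -0.99 against depth-weighted ones. Stmn1, which binds tubulin, was at 0.38 and 0.33 against all and at -0.80 and -1.13 against depth-weighted 0-or-1 cells, and Hmgb2, a chromatin protein of dividing cells, at 0.24 and 0.23 and at -0.85 and -0.94. Mki67, a proliferation marker, had a UMI in 20.9% and 12.8% of 4-of-8 cells against 5.25% and 3.29% unthinned. At 1500 UMIs it was in 5.49% and 3.85% against 2.40% and 0.905%. The thinned difference was 3.10 points (-0.19 to 9.86) at 8 weeks and 2.94 points (0.32 to 9.81) at 16 weeks. Immediate early genes, which follow handling as well as activation, were at -0.31 and 0.06, and at 0.26 and 0.60 with depth-weighted 0-or-1 cells.

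**Figure D4:**
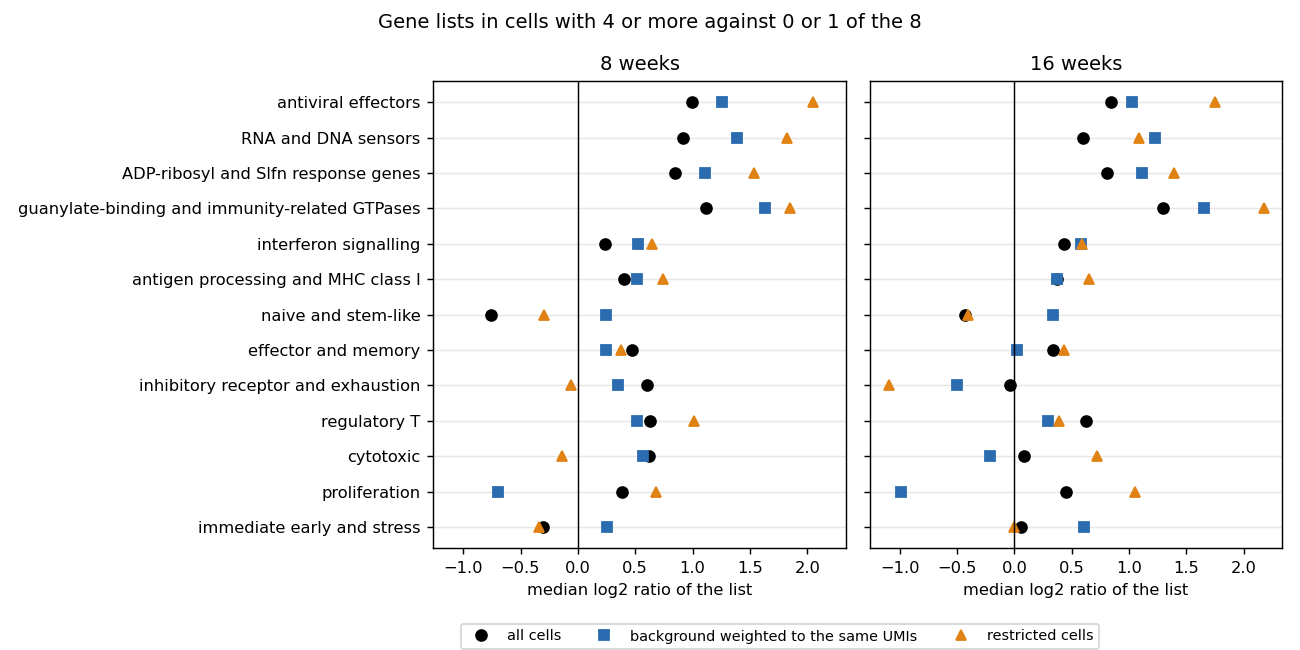
Points give the median log2 ratio of each gene list, 4-of-8 over 0-or-1 cells, with all cells (black circles), with 0-or-1 cells weighted to the same UMIs (blue squares) and in restricted cells (orange triangles), at 8 weeks (left) and 16 weeks (right). The 4 response lists lie to the right of 0 in every version, while the naive list moves from -0.76 and -0.43 to 0.25 and 0.34 and the proliferation list from 0.38 and 0.45 to -0.69 and -0.99. The proliferation triangle at 16 weeks, at 1.05, has a value that the UMIs added to each sum can give alone.

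**Figure D5:**
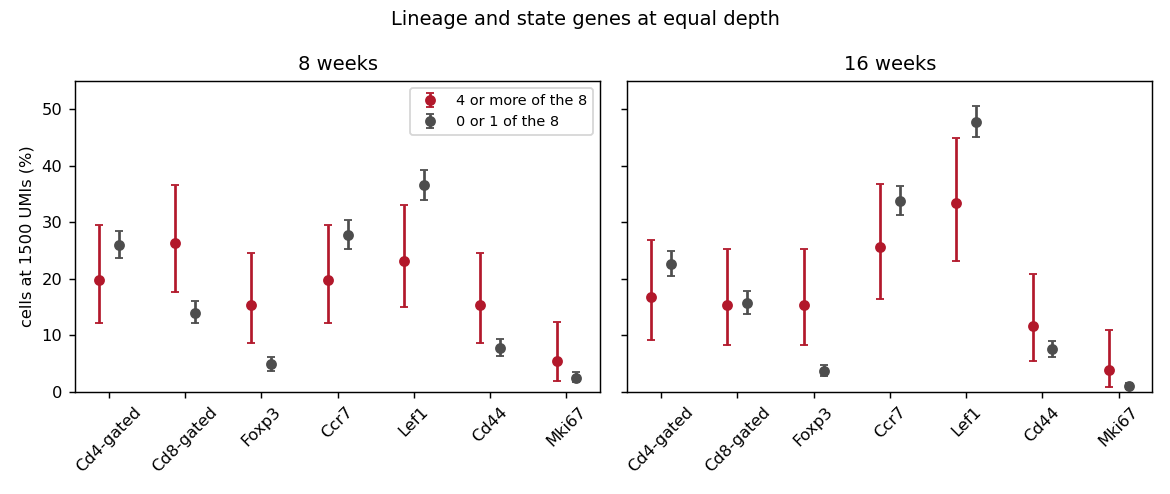
Points give the percent of cells, thinned to 1500 UMIs, that were Cd4-gated or Cd8-gated or had a UMI of each gene, in 4-of-8 (red) and 0-or-1 cells (grey), and bars the exact 95% binomial interval. Foxp3 is at 15.4% in both libraries against 4.80% and 3.62%, and Lef1 at 23.1% and 33.3% against 36.5% and 47.8%.

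RNA of other cell types was sparse. B cell genes gave 10.1 and 43.5 CPM in 4-of-8 cells against 21.5 and 15.5 CPM, with 6 and 1 of the 7 found at 0, and myeloid genes 34.2 and 34.4 CPM against 24.8 and 21.1 CPM, with 6 and 9 of 12 at 0. The summed level per 4-of-8 cell ran from 0 to 236 and 1267 CPM for B cell genes and from 0 to 414 and 247 CPM for myeloid genes. Of the 4-of-8 cells, 10 of 91 (11.0%) and 10 of 78 (12.8%) had 2 or more B, myeloid or acinar genes, against 5.76% and 6.93%. The dendritic list was at 736 and 321 CPM against 258 and 166 CPM, and 1 cell per library gave 84.0% and 91.7% of the UMIs of H2-Eb1 (MHC class II) and 89.0% and 61.8% of those of Cd74, its chaperone. The dendritic list also holds Bst2, which is in the antiviral list too. Bst2 gave 176 of the 736 CPM and 176 of the 321 CPM, against 82.7 and 89.7 CPM in 0-or-1 cells. Cd163l1, a gene of gamma-delta T cells, past 2-fold at 2.70 and 3.22, came from 2 cells in each library. Acinar genes were at 111 and 92.5 CPM against 125 and 248 CPM. Without the cells with B, myeloid or acinar genes, all 30 ratios of the 15 highest genes, which were chosen in these cells, stayed past 2-fold.

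Some 4-of-8 cells shared a receptor with another cell at 8 weeks and 0 at 16 weeks. A paired alpha and beta chain was found in 80 of 91 and 69 of 78. Of these, 11 at 8 weeks (13.8%, 7.07 to 23.3%) and 0 of 69 at 16 weeks (3 cells of 69, the limit used for a count of 0, is 4.35%) shared their receptor with another kept cell, against 11.3% and 6.55% of the 0-or-1 cells. The 10 clones at 8 weeks that held a 4-of-8 cell had 29 cells, 11 of them 4-of-8 cells, and 1 clone held 2 of them. Cells with 2 or more beta chains were in no clone. Among paired cells with 1 beta chain the shares were 11 of 45 (24.4%, 12.9 to 39.5%) at 8 weeks and 0 of 41 at 16 weeks (3 of 41 is 7.32%), against 12.4% and 7.30%. The difference at 8 weeks was 12.1 points (1.61 to 26.5) in these cells and 2.47 points (-3.81 to 11.9) in all paired cells.

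Between the ages, the share of 4-of-8 cells was 0.820 points lower at 16 weeks, with a Newcombe interval from -2.15 to 0.493 that holds both signs. Their response genes had a median log2 ratio of 0.08 (16 over 8 weeks) over the 57 genes, 35 above 0 and 22 below. The summed level was lower at 16 weeks, at 11676 against 13181 CPM. It was 17122 against 25667 CPM in restricted cells and 12081 against 18726 CPM in cells with Ifit1, Ifit3 or Usp18. In 4-of-8 cells with none of Ifit1, Ifit3 and Usp18 it was higher at 16 weeks, at 11300 against 10325 CPM. In all 4-of-8 cells the antiviral effectors were at 3535 against 5565 CPM and the sensors at 760 against 784 CPM. ADP-ribosyl and Slfn genes were higher at 16 weeks, at 6250 against 5917 CPM, as were GTPases, at 1131 against 915 CPM. The antiviral gene Ifi27l2a alone was at 1916 against 6195 CPM in restricted cells. In cells with Ifit1, Ifit3 or Usp18 it was at 1804 against 5669 CPM. In those with none of the named genes it was at 2653 against 3400 CPM. The sum without Ifi27l2a was not taken, so the lower sum at 16 weeks cannot be read as a fall of the other response genes. Of 5791 genes, 180 (3.11%) were past 2-fold higher and 125 (2.16%) past 2-fold lower at 16 weeks in the 4-of-8 cells, against 0.121% and 0.276% in the larger sums of the 0-or-1 cells. Over all genes 49.7% were above 0 and 50.3% below 0 in the 4-of-8 cells. Naive genes were higher at 16 weeks in the 4-of-8 cells (median 0.71, 14 of 14 above 0), where the 0-or-1 cells had 0.40. Effector genes were lower (-0.67, 18 of 19 below 0), where the 0-or-1 cells had -0.48. The age, the library and the mice cannot be told apart.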

How the data were processed

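RNA and receptor libraries of sorted islet T cells were used at 8 and 16 weeks. The deposited values are raw UMI counts per gene and barcode, with software version 3.0.1 in the matrix headers per the file headers, and build mm10 and Seurat named in the submitters' processing notes. The deposited receptor tables give productive chains per barcode. The libraries hold 8659371 and 8183747 UMIs over 2043 and 2107 barcodes and 27998 genes. Kept cells have at least 500 genes and at most 10% mt- UMIs, and doublets were not removed.

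A symbol shared by several gene IDs was read from the ID with the most UMIs. Counts were summed over cells, and 0.5 UMIs were added to each sum before log2 ratios, whose exact 95% intervals are conditional on a gene's total. A gene needed 10 UMIs, seen or predicted, in both libraries. Shares have Clopper-Pearson and differences Newcombe intervals. UMIs of 1 library are not replicates, so intervals cover counting error only. The summing was tested on simulated data.

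The members, gene lists and tests were chosen with earlier results of these data known. Named genes are the 8, the 15 highest past 2-fold in both libraries (0 were lower) with 25% or less of UMIs from 1 cell, lineage genes, interferon-response list genes, and up to 6 genes of other lists by UMIs. Any named outside this rule were chosen after their values were seen. Alternatives are given in the closing section. Python 3.11.15, numpy 2.4.6, pandas 2.3.3, scipy 1.17.1 and matplotlib 3.10.9 were used. Some genes are not reported here.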

Additional observations from a re-analysis of the deposited data

Results flagged for a closer look

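The sign of the log2 ratio of 4-of-8 over 0-or-1 cells turned between the ages for 4 named genes whose counting interval lay on one side of 0 in each library. The difference between the ages was not tested, since each age has 1 library. Ube2c, of the cell-division list, was at 1.34 at 8 weeks and -1.55 at 16 weeks, where it had 10 UMIs, and 1 cell gave 36.2% and 40% of its UMIs. Cd8a, a chain of the Cd8 coreceptor, was at 0.80 and -0.47. Lag3, an inhibitory receptor, was at 0.60 and -0.38. Ccl4, a chemokine of activated T cells, was at 0.80 and -2.87 on 185 and 15 UMIs, and 1 cell gave 28.1% and 26.7% of them.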

How the results depend on the processing

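No paired analysis was possible because each age has 1 library and no result comes from a test. The ratios of the 15 highest genes stayed above 0 in 30 of 30 values under each of 13 alternatives, and 27 to 30 were past 2-fold. The 15 were chosen as the highest in these cells, and the alternatives reuse many of the cells and the same 8 genes. Staying above 0 was thus largely set by the choice and supports nothing further. Of these values, 5 after thinning (Serpinb9 in both libraries, Irgm2 and Serpina3f at 8 weeks, Ccr2 at 16 weeks) and 1 in restricted cells (Serpina3f at 8 weeks) rest on 0 UMIs in the 4-of-8 cells, and their sign is that of the added 0.5 UMIs. Where a value moved, the cause was not tested. Alternatives in restricted cells, with cells chosen after thinning, and in the receptor and lineage subsets under 5000 UMIs were added after seeing the data.

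Genes past 2-fold higher in both libraries, 36 against all 0-or-1 cells, numbered 59 against cells with none of the 8, 63 with depth weights, 22 in Cd4-gated cells, 74 with equal weight per cell, 19 at a minimum of 20 UMIs, 344 at a minimum of 1 UMI, 15 without each gene's largest cell and 13 after thinning. Genes past 2-fold lower, 0 in the report, numbered 2 with 3 of the 8 as the rule, 3 with 5, 6 against cells with none, 35 with depth weights, 5 in Cd4-gated cells, 7 with equal weight, 7 without cells of 2 or more beta chains, 2 without cells with B, myeloid or acinar genes, 76 at 1 UMI, 19 without the largest cell and 1 in restricted cells.

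The response median was 1.49 at 8 weeks with 5 of the 8, 1.77 and 1.65 in restricted cells and 2.36 and 2.22 after thinning. GTPases were at 1.85 and 2.17 in restricted cells and 1.71 and 2.13 after thinning. The naive median turned to 0.25 and 0.34 with depth weights and to 0.12 after thinning at 8 weeks, and was -0.29 in restricted cells there. The effector median at 8 weeks was 0.25 with depth weights, 0.27 in Cd4-gated cells, 0.36 without the largest cell, 0.37 in restricted cells and 0.035 after thinning. Proliferation at 8 weeks was 0.58 against cells with none, 0.80 with equal weight and 0.68 in restricted cells, and turned to -0.69 with depth weights, -0.34 without cells of 2 or more beta chains and -0.12 after thinning. At 16 weeks it was -0.33 with 5 of the 8, -0.99 with depth weights and 1.05 in restricted cells. Apitd1 had 0 UMIs in the restricted 4-of-8 cells at 16 weeks and the same ratio of 1.05. A value of that size can come from the UMIs added to each sum alone. No higher level of cell-division genes is therefore read from it.

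The dendritic list had only 3 genes with enough UMIs, Bst2 among them. Its median turned at 8 weeks to -1.93 with 5 of the 8, -1.39 without cells of 2 or more beta chains, -0.72 without the largest cell, -2.59 in restricted cells and -0.37 after thinning. At 16 weeks it turned to -0.082 with 5 of the 8, -0.30 without the largest cell and -1.08 in restricted cells. Immediate early genes at 8 weeks turned to 0.26 with depth weights and 0.26 after thinning, exhaustion to -0.062 and cytotoxic genes to -0.14 in restricted cells at 8 weeks, and acinar genes to 0.31 after thinning at 16 weeks.

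The share of cells taken was 12.1% and 11.3% with 3 of the 8, 1.81% and 1.60% with 5, 3.35% and 2.94% without cells of 2 or more beta chains, and 0.738% and 0.809% after thinning. Cd8-gated cells among those assigned were 20% at 8 weeks with 5 of the 8, and 57.1% and 48.0% thinned. Cells with both Cd4 and Cd8 were 0% in each library under 5000 UMIs with at most 1 beta chain, and 1.10% and 5.13% thinned. Foxp3 was found in 12.5% and 11.1% of the former and in 15.4% and 15.4% thinned. Among 4-of-8 cells under 5000 UMIs with a beta chain, 3.57% and 5.71% had 2 or more. With 32 and 36 restricted 4-of-8 cells and 13 and 15 that kept 4 of the 8 after thinning, depth limits single genes to wide intervals.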
